A study of Rattus norvegicus with 5 samples.

Results

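The fibrillar collagen genes Col1a1 (ENSRNOG00000003897), Col1a2 (ENSRNOG00000011292), Col3a1 (ENSRNOG00000003357), Col5a1 (ENSRNOG00000008749) and Col5a2 (ENSRNOG00000003736) were followed as 5 columns, out of the 15074 genes and 3 virus features that all 5 expression tables share. They were chosen by name, as the chains of collagen types I, III and V, with earlier results of these data known. The cells came from the ventricles of neonatal Sprague dawley rats, wild type and at postnatal day 2, and were cultured as a mix of myocytes and non-myocytes. Every culture received an adenovirus: Adeno-GFP served as the control and Adeno-TBX18 carried human TBX18, a transcription factor of the sinoatrial node used to turn ventricular myocytes into pacemaker-like cells. The libraries were GFP at day 3, TBX18 at day 3, GFP at day 14, TBX18 at day 14, and TBX18 with 0.2 µM A83-01, an inhibitor of the TGF-beta type I receptor kinases. The last is given as day 14 by its title and description, while its treatment label speaks of 3 days. Each group was 1 library of droplet single-cell RNA, so a ratio between groups is a ratio between 2 libraries. No p-value is given, and every interval below is a 95% interval for counting error only. No uninfected culture and no GFP culture with A83-01 was analysed here.

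Fibrillar collagens are secreted as triple-helical procollagens, trimmed outside the cell and assembled into the fibrils that carry tension in the heart wall. In the ventricle they are made mainly by fibroblasts, and TGF-beta is a textbook inducer of their transcription. Col1a1 and Col1a2 encode the chains of type I collagen, the main fibril protein. Col3a1 encodes the chain of type III collagen, which forms mixed fibrils with type I. Col5a1 and Col5a2 encode chains of type V collagen, a minor partner that starts fibrils and limits their width. Col3a1 and Col5a2 are neighbours on chromosome 9, with 0 annotated genes between their starts in the RefSeq annotation of GRCr8, while the other members lie on chromosomes 3, 4 and 10.

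Promoter sequences are shown for a member of the abundant type I pair and a member of the scarce type V pair, since the members' levels differ most along that line. They were taken from RefSeq's GRCr8 table, which holds 3 of the 5 members, and the counts themselves refer to Rnor_6.0. Col1a1 and Col3a1 have no entry there. The capitals mark the letters CCAAT and TATAAA on either strand. The Col1a2 stretch ends 25 bases past TATAAA and the Col5a2 stretch is the 250 bases before the annotated start.
Col1a2, chr4:33518307-33518417, plus strand: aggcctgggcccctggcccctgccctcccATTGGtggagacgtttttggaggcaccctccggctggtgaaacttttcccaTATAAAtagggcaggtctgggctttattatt
Col5a2, chr9:55090152-55090401, minus strand: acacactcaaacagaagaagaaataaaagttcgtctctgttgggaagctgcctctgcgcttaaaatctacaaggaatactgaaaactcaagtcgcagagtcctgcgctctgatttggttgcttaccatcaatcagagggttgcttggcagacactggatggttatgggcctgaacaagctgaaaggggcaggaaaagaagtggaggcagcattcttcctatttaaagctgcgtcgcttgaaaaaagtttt
The Col1a2 stretch held CCAAT, on the minus strand, and TATAAA, and the Col5a2 stretch held neither of them nor GGGCGG. The end of the Col1a2 stretch was set by its TATAAA, so that match was given by the choice of stretch. The bases between that end and the annotated start of Col1a2 were not searched. The 250 bases before the start of Col5a1, the other type V member in the table, held GGGCGG on the plus strand and neither of the other motifs. Over 33469 RefSeq promoters, the 250 bases before the start held CCAAT on either strand in 34.0%, TATAAA in 12.9% and GGGCGG in 30.5%. Over the first 111 of those bases, the window of the Col1a2 stretch, the shares were 16.0%, 5.89% and 11.6%. A match is a description of letters and was not tied to a level.

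The tables held 6424 to 8859 barcodes and 104599784 to 202019552 UMIs (unique molecular identifiers, each standing for 1 captured RNA) over the shared genes, with a median of 15581 to 28563 UMIs per barcode. Library pairs shared 7 to 20 barcodes. Day 14 tables held only barcodes with 1977 to 5563 genes, whereas the day 3 tables began at 28 genes, so day and table filter differ together. None of the 17060 Ensembl gene IDs could be paired with a symbol in the reference table used here. Marker genes could therefore not be read, and the labelled myocytes and non-myocytes could not be checked against markers. Clusters built without the members were grouped into 3 compartments by their profiles, and these are named by number. Compartment 1 had the most EGFP per UMI in the GFP library at day 3, compartment 2 was the larger of the other groups, and compartment 3 the smaller. Clusters that carried the leading genes of compartments 1 and 2 together were set aside as mixed. They made up 0.951% to 4.94% of kept cells, had median depths of 21134 to 35938 UMIs, and were deeper than every other class of their library. The grouping rule does not use the members but was settled after their levels by cluster had been seen. The virus RNA that each label names was present, and levels of the other virus's RNA are not given here. EGFP was at 93.2 and 166 CPM (UMIs of a gene per 1000000 UMIs of the class) in compartment 1 of the GFP libraries at days 3 and 14. In compartment 1 of the TBX18 libraries hTBX18 was at 23.9, 9.84 and 7.37 at day 3, day 14 and with A83-01. In compartment 2, EGFP was at 6.80 and 14.7 and hTBX18 at 1.08, 0.998 and 0.772. That compartment 1 had more EGFP with GFP at day 3 follows from the rule that named it.

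Compartment 2 carried nearly all fibrillar collagen RNA. It held 96.6%, 96.1%, 93.5%, 97.3% and 95.7% of the 5 genes' UMIs in the GFP day 3, TBX18 day 3, GFP day 14, TBX18 day 14 and A83-01 libraries. Its share of the kept cells was 37.6%, 46.4%, 63.7%, 82.8% and 65.0% in the same order, with 2880, 2830, 3862, 6543 and 4657 cells. The 5 genes together reached 13518, 12024, 41555, 37265 and 20438 CPM there. Compartment 1 stood at 93.9, 157, 530, 1398 and 142 CPM, or 0.694%, 1.30%, 1.27%, 3.75% and 0.694% of compartment 2. In every library all 5 members were higher in compartment 2 than in compartment 1. At day 14 fibrillar collagens were among the most counted RNAs of compartment 2: by UMIs Col1a1 ranked 2, Col3a1 3 and Col1a2 5 in both the GFP and the TBX18 library, of 14901 and 14986 detected genes. With A83-01 they ranked 6, 8 and 20 of 14908. These counts are of 3' ends, 1 per captured RNA, and are not scaled by transcript length.

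**Figure D1:**
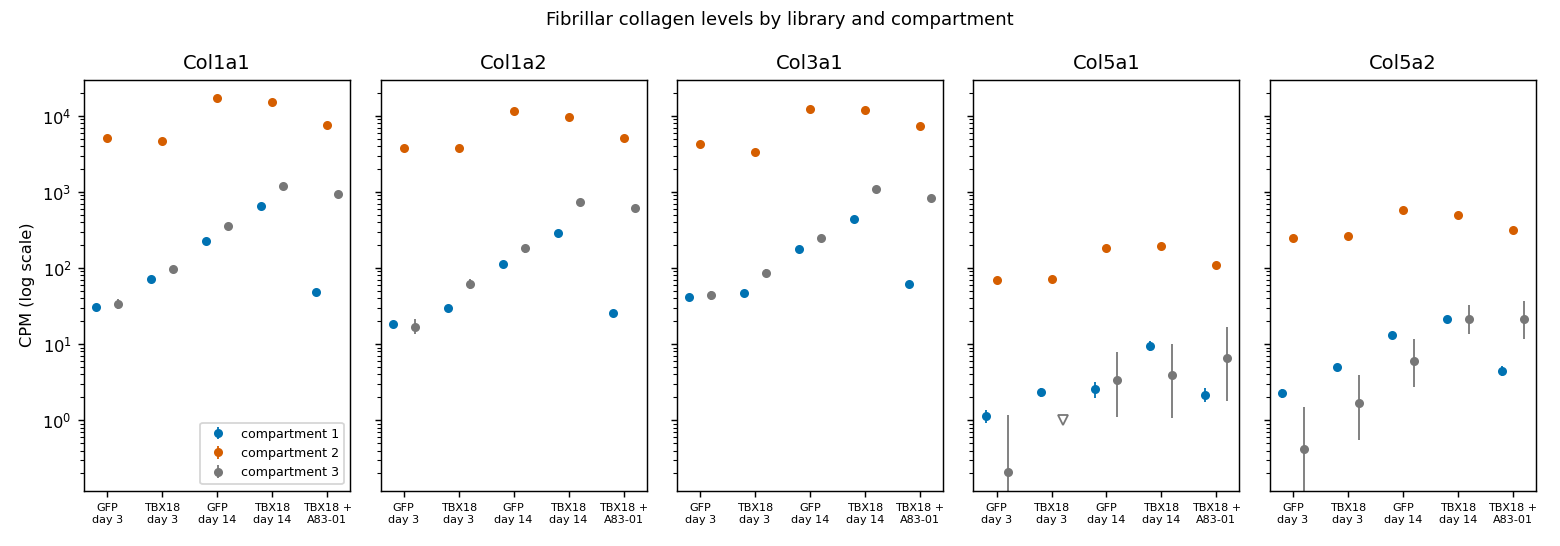
CPM (log scale) of each member in each of the 5 libraries, by compartment, with exact 95% Poisson intervals for counting error, and an open triangle at a set limit of 3 UMIs where the count was 0. Compartment 2 lies above the others for every member, from 70.4 for Col5a1 to 16884 for Col1a1, and compartment 1 lies close to or below compartment 3 for Col1a1, Col1a2 and Col3a1.

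Type I collagen was the largest part of the total in compartment 2. Col1a1 was at 5112 CPM in GFP at day 3, 4620 in TBX18 at day 3, 16884 in GFP at day 14, 14996 in TBX18 at day 14 and 7602 with A83-01. Its partner chain Col1a2 was at 3787, 3746, 11604, 9717 and 5142 in the same order. Both were lowest at day 3, highest at day 14 without A83-01 and in between at day 14 with it. Col3a1, the type III chain, was at 4302, 3326, 12307, 11856 and 7269. Its order of libraries was that of the type I chains, and the 2 day 14 libraries without A83-01 were nearest to each other. Col5a1 was far scarcer, at 70.4, 71.7, 184, 197 and 110 CPM. Col5a2 was at 247, 262, 576, 499 and 316. For Col5a1 the interval at day 3 ran from 68.5 to 72.4 with GFP and from 69.8 to 73.5 with TBX18, so those neighbours overlapped, while every other pair of neighbours in the order of libraries was apart by more than counting error for each member. The spread between cultures of 1 group is unknown for all of them.

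TBX18 and GFP differed little in compartment 2. At day 3 the log2 ratio of the TBX18 to the GFP library was -0.15 for Col1a1 (-0.15 to -0.14), -0.02 for Col1a2 (-0.02 to -0.01), -0.37 for Col3a1 (-0.38 to -0.36), 0.03 for Col5a1 (-0.03 to 0.08) and 0.09 for Col5a2 (0.06 to 0.11). Col3a1 stood furthest from 0, at 0.773 times the GFP level. At day 14 the ratios were -0.17, -0.26, -0.05, 0.10 and -0.21 in the same gene order, and here Col1a2 stood furthest from 0, at 0.837 times. For the 5 together they were -0.17 at day 3 and -0.16 at day 14. None of the 5 members was 2-fold higher or lower on either day, against 0.927% of 4315 genes in each direction at day 3 and 2.7% higher and 0.307% lower of 5218 genes at day 14. Scaling by the median of gene ratios turned the direction of Col1a2 at day 3, to 0.072, and of Col5a1 at day 14, to -0.047.

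All 5 members were lower with A83-01 in compartment 2. Col1a1 fell from 14996 CPM in the TBX18 library to 7602 with the inhibitor, a log2 ratio of -0.98 (-0.98 to -0.98) or 0.507 times. For Col1a2 the ratio was -0.92 (0.529 times), for Col5a1 -0.85 (0.557 times), for Col3a1 -0.71 (0.613 times) and for Col5a2 -0.66 (0.632 times). The 5 together were at 0.548 times, a log2 ratio of -0.87. None was 2-fold lower, where 6.77% of 5300 genes were, and the median gene was at -0.10 with the members' median at -0.85. With the members taken out of the total to which UMIs are scaled, 1 of the 5, Col1a1, was past 2-fold. In the A83-01 library, members stood above their day 3 levels: Col1a1 was at 7602 against 4620 in the TBX18 library at day 3, and Col3a1 at 7269 against 3326. This comparison shares the TBX18 day 14 library with the comparison of the viruses at day 14.

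**Figure D2:**
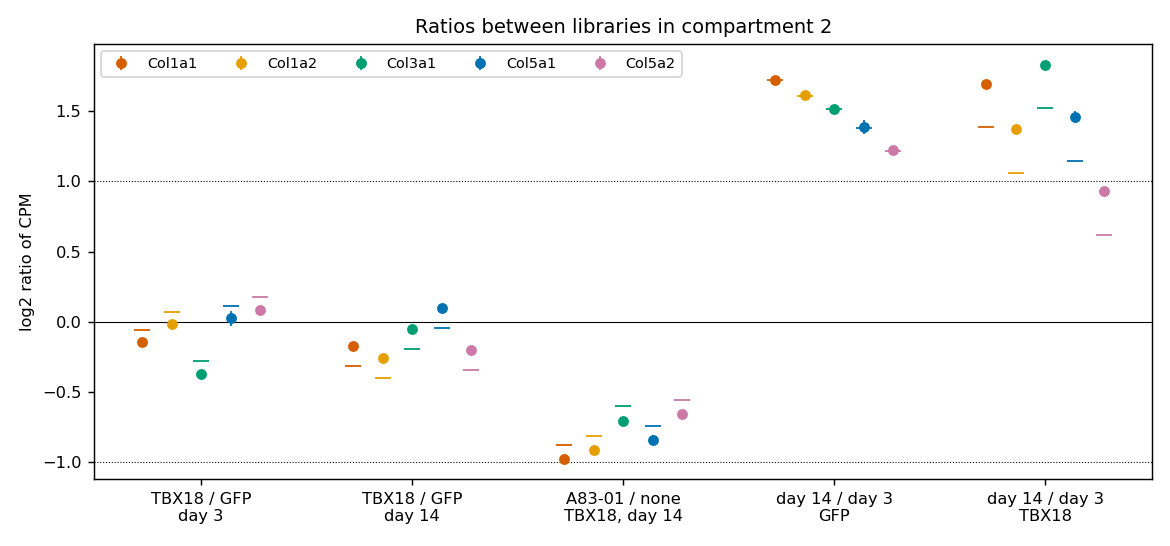
Log2 ratios of CPM between libraries in compartment 2 for the 5 members (points, scaled to library totals, with exact 95% intervals for counting error, mostly smaller than the points), with short lines for scaling by the median of gene ratios and dotted lines at 2-fold. Ratios of TBX18 to GFP lie between -0.37 and 0.10, those of A83-01 between -0.98 and -0.66, and those of day 14 to day 3 between 0.93 and 1.83.

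Fibrillar collagens were higher at day 14 than at day 3 with either virus. In the GFP libraries Col1a1 rose 3.30-fold in compartment 2, Col1a2 3.06-fold, Col3a1 2.86-fold, Col5a1 2.62-fold and Col5a2 2.33-fold. All 5 were at least 2-fold higher, against 17.3% of 4827 genes. In the TBX18 libraries the ratios were 3.25 for Col1a1, 2.59 for Col1a2, 3.56 for Col3a1, 2.75 for Col5a1 and 1.91 for Col5a2. There 4 of 5 were at least 2-fold higher, against 25.9% of 4951 genes. Col1a1 had the largest ratio of the 5 with GFP and Col3a1 with TBX18, and Col5a2 had the smallest with both. The day 3 and day 14 tables were deposited in different units and with different ranges of genes per cell, and culture time cannot be told apart from that. Restricting every library to the range of the day 14 tables gave a log2 ratio of the 5 together of 1.66 with GFP and 1.72 with TBX18, beside 1.62 and 1.63. Scaling by the median of gene ratios left GFP at 1.62 and moved TBX18 to 1.32, since the median gene itself was 0.31 higher there.

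The make-up of the collagen RNA was steady across libraries, with small shifts between type I and type III. In compartment 2, Col1a1 made up 37.8%, 38.4%, 40.6%, 40.2% and 37.2% of the 5 genes' UMIs in the GFP day 3, TBX18 day 3, GFP day 14, TBX18 day 14 and A83-01 libraries. Col1a2 gave 28.0%, 31.2%, 27.9%, 26.1% and 25.2%, and Col3a1 31.8%, 27.7%, 29.6%, 31.8% and 35.6%. Col5a1 stayed between 0.443% and 0.596%, and Col5a2 between 1.34% and 2.18%. The A83-01 library had the largest Col3a1 share, and its ratio of Col3a1 to Col1a1 UMIs was 0.956 (0.953 to 0.960), beside 0.791 in the TBX18 library without it and 0.729 in the GFP library at day 14. At day 3 that ratio was 0.841 with GFP and 0.720 with TBX18. The ratio of Col1a1 to Col1a2 was 1.35 and 1.23 at day 3, then 1.46, 1.54 and 1.48 in the GFP, TBX18 and A83-01 libraries of day 14. The ratio of Col5a1 to Col5a2 was 0.286, 0.274, 0.320, 0.394 and 0.347 in the order of libraries above. These differences exceed counting error. Their size against the spread between cultures is unknown.

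**Figure D3:**
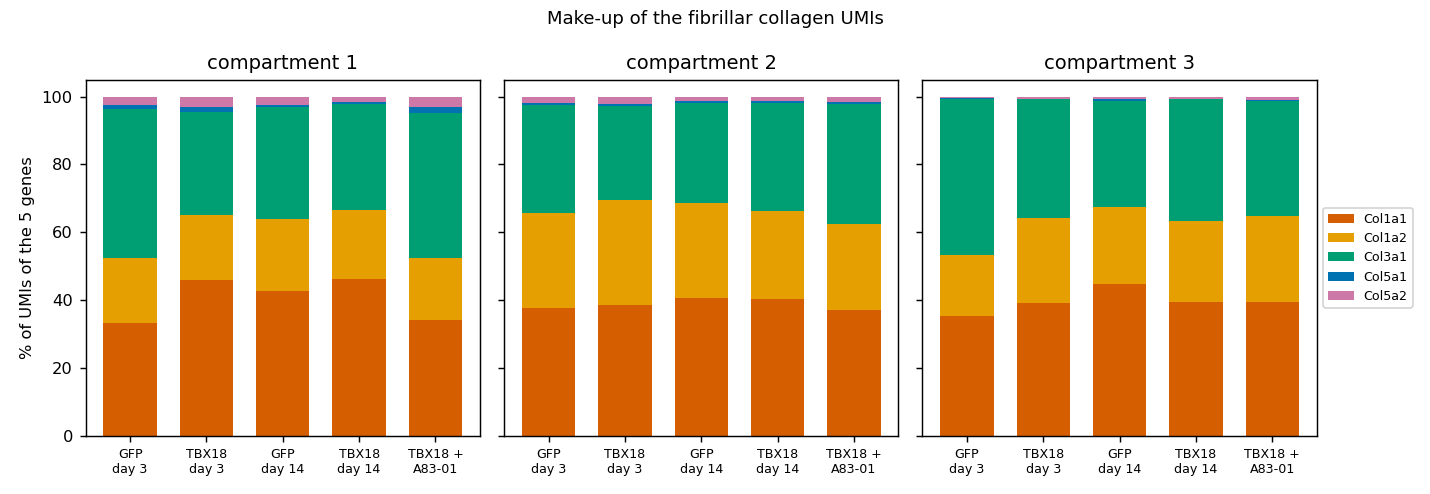
Percent of the 5 genes' UMIs that each member contributes, by library, in compartments 1, 2 and 3. In compartment 2 the Col3a1 share runs from 27.7% to 35.6% and is largest with A83-01, and in compartment 1 the Col1a2 share is smaller than in compartment 2 in every library.

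The change between libraries ran through the cells of compartment 2 and was not carried by a few. Cells were thinned to 5000 UMIs each, which left out 46, 43, 1, 3 and 0 shallower cells. The median cell then held 63 collagen UMIs in GFP at day 3, 56 in TBX18 at day 3, 203 in GFP at day 14, 183 in TBX18 at day 14 and 100 with A83-01. The central 90% of cells ran from 27 to 113, from 25 to 102, from 121 to 299, from 101 to 271 and from 49 to 159 in the same order. With GFP the 5th percentile at day 14 lay above the 95th percentile at day 3. With A83-01, the 95th percentile of 159 lay below the median of the TBX18 library without it. The tenth of cells with the most collagen held 18.1%, 18.6%, 15.6%, 15.5% and 16.5% of the collagen UMIs. A Col1a1 UMI was missing in at most 0.318% of cells of any library at this depth. Col5a2, by contrast, was seen in 63.7%, 66.7%, 90.8%, 85.8% and 74.8% of cells at 5000 UMIs (93.3%, 95.6%, 99.2%, 98.3% and 96.1% without thinning). Col5a1 was seen in 27.1%, 26.3%, 57.1%, 58.6% and 39.5% (68.2%, 72.9%, 88.0%, 88.6% and 74.9% without thinning). The share in compartment 3 was between 0% and 6.52% for Col5a2 and between 0% and 1.65% for Col5a1 at the same depth.

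**Figure D4:**
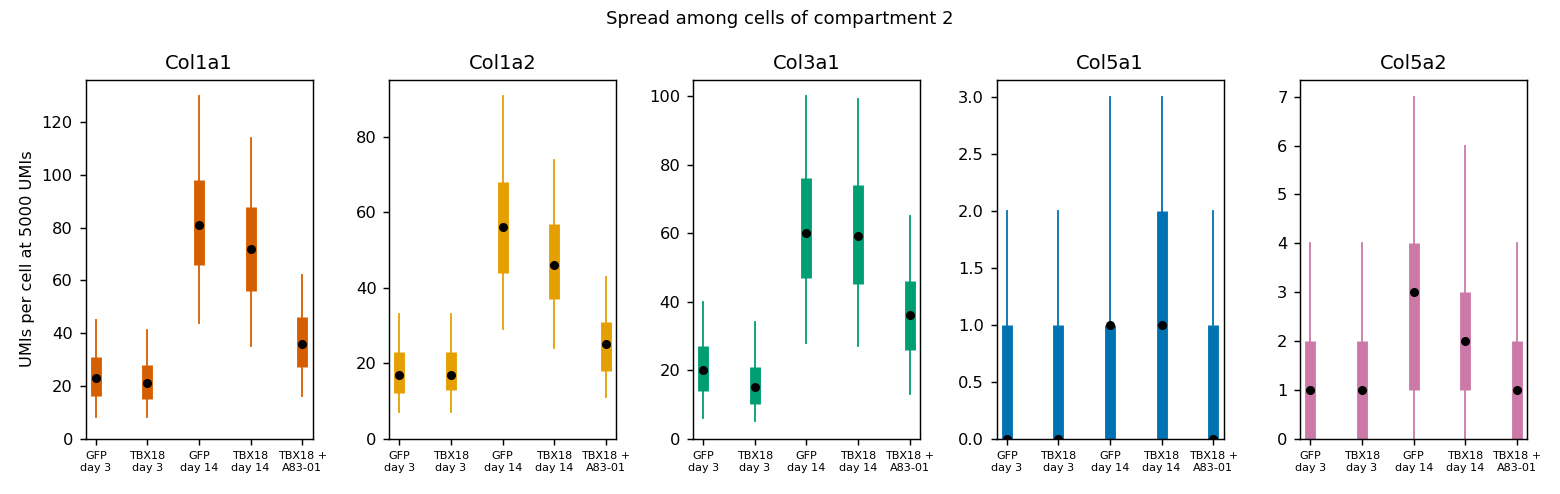
UMIs of each member per compartment 2 cell after thinning to 5000 UMIs (vertical axes, one scale per gene), by library. Dots are medians, thick bars the central 50% and thin bars the central 90% of cells; the Col1a1 median moves from 23 and 21 at day 3 to 81 and 72 at day 14 and is 36 with A83-01.

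Clusters inside compartment 2 varied around the level of their library. Over clusters of at least 50 cells, the 5 together ran from 8676 to 14564 CPM across 5 clusters of GFP at day 3 and from 8556 to 13791 across 5 clusters of TBX18 at day 3. At day 14 they ran from 32783 to 46635 across 7 clusters with GFP, from 24634 to 45450 across 11 with TBX18, and from 13081 to 23268 across 7 with A83-01. The highest cluster with A83-01 was below the lowest of either other day 14 library, and the highest of each day 3 library was below the lowest at day 14 with the same virus. A further A83-01 cluster of 49 cells, under that size, was at 24784. The clusters were numbered within a library and were not matched between libraries.

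Col1a1, Col1a2 and Col3a1 moved together from cell to cell, most of all the type I pair. Across compartment 2 cells thinned to 5000 UMIs, Pearson's r of log2(UMIs + 1) between Col1a1 and Col1a2 was 0.74, 0.71, 0.73, 0.77 and 0.72 in the GFP day 3, TBX18 day 3, GFP day 14, TBX18 day 14 and A83-01 libraries, over 2834, 2787, 3861, 6540 and 4657 cells. For Col1a1 with Col3a1 it was 0.65, 0.62, 0.51, 0.57 and 0.53. The type V pair had r of 0.12 to 0.18, and pairs of a type V with a type I or type III gene 0.13 to 0.29, at the low type V counts given above. Cells of a library share its preparation, and a fixed depth ties the counts of abundant genes to each other. Among 3673 other genes with at least 20 CPM in compartment 2 of every library, Col1a2 was the most alike to Col1a1 across cells by a different measure, Pearson's r of the log of counts scaled per cell, plus 1, over all compartment 2 cells without thinning. Its mean r over the 5 libraries was 0.857 (0.807 to 0.906), and Col3a1 ranked 2 at 0.670. For Col3a1 the nearest were Col1a1 and Col1a2. The most alike to Col5a1 was Col5a2, at 0.365, with the gene listed as ENSRNOG00000062127 ranked 2 at 0.359. That gene ranked 1 for Col5a2 at 0.413, ahead of Col1a2 at 0.383 and Col5a1 at 0.365. The gene outside the members most alike to both type I chains was listed as ENSRNOG00000012840, with a mean r of 0.541 to Col1a1 and 0.585 to Col1a2.

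Over compartment 1 as a whole, the type I and type III genes were at or below the level in compartment 3, or above it by less than counting error. No expression beyond that of compartment 3 was thus shown for the compartment as a whole. Parts of it differed: Col1a1 in cluster 5 of TBX18 at day 3, described below, was at 207 CPM beside 96.0 in compartment 3. Compartment 3, of 261, 138, 183, 72 and 46 cells, served as the comparison. It had little virus RNA and held the 5 together at 0.704% to 11.8% of the compartment 2 level. It was not the compartment with the least collagen, since it stood well above compartment 1 with TBX18 at day 14 and with A83-01. Without markers it is not known to be a cell type that lacks collagen. The leading genes of compartment 2 were there at 0.132 of their level in the largest compartment 2 cluster with TBX18 at day 14 and at 0.201 with A83-01, and at 0.0227 to 0.0761 in the clusters of the other libraries. At day 3 with GFP the 5 together were at 93.9 CPM in compartment 1, 95.2 in compartment 3 (86.7 to 104) and 86.1 (78.3 to 94.5) in the 731 barcodes with under 500 genes. With TBX18 at day 3 they were at 157, 246 and 109. At day 14 compartments 1 and 3 were at 530 and 793 with GFP, at 1398 and 3067 with TBX18, and at 142 and 2410 with A83-01. The level of compartment 3 moved with the settings: over the 9 run, the 5 together ranged there from 95 to 3202 CPM with GFP and from 115 to 2900 with TBX18 at day 3, from 793 to 794 and from 2622 to 6810 at day 14, and from 605 to 5875 with A83-01. With TBX18 at day 3 compartment 1 was above compartment 3 with no doublets removed (146 and 117), with the members kept in the clustering (154 and 117) and in the day 14 range of genes and UMIs (128 and 115). With mixed clusters kept in compartment 1 it was above compartment 3 in every library but the A83-01 one. In the A83-01 library the tenth of compartment 3 cells with the most collagen held 87.6% of it, and the median cell at 5000 UMIs had 1 collagen UMI, beside 0 in compartment 1. With TBX18 at day 14 those medians were 7 and 5, and with GFP 4 and 2. The share of compartment 1 cells with any of the 5 at 5000 UMIs was 35.0%, 45.0%, 88.7%, 99.5% and 49.1% in the GFP day 3, TBX18 day 3, GFP day 14, TBX18 day 14 and A83-01 libraries (81.3%, 91.9%, 99.6%, 100% and 89.8% without thinning). The share in compartment 3 was 35.5%, 48.5%, 97.8%, 100% and 65.2%, at median depths of 17493, 19495, 7785, 13209 and 11718 UMIs before thinning, beside 22319, 29658, 14537, 15330 and 19256 in compartment 1.

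With the settings used above, ratios of the 5 together between libraries had the same direction in compartments 1 and 3. At day 3 the 5 together had a log2 ratio of TBX18 to GFP of 0.74 (0.70 to 0.78) in compartment 1 and 1.37 (1.20 to 1.54) in compartment 3, and at day 14 of 1.40 and 1.95. Day 14 against day 3 gave 2.50 and 3.06 with GFP, and 3.16 and 3.64 with TBX18. For A83-01 against TBX18 alone the ratio was -3.30 in compartment 1 and -0.35 in compartment 3, whose mean rested on the few cells described above. Under other settings some directions in compartment 3 turned. TBX18 was below GFP there at day 3 with no doublet removal (117 and 614 CPM), with all libraries clustered together (2900 and 3202) and in the day 14 range (115 and 183). With joint clustering, GFP at day 14 (793) was below GFP at day 3 (3202). By member, TBX18 against GFP in compartment 1 gave 1.21, 0.73, 0.20, 1.04 and 1.14 at day 3 for Col1a1, Col1a2, Col3a1, Col5a1 and Col5a2, and 1.52, 1.34, 1.31, 1.91 and 0.70 at day 14. A83-01 gave -3.73, -3.47, -2.84, -2.13 and -2.25. The Col1a1 value at day 3 was raised by 1 cluster, cluster 5 with 321 of the 3074 cells. Without that cluster Col1a1 was at 54.6 CPM with TBX18 against 31.1 with GFP, a log2 ratio of 0.81 (0.74 to 0.88), which is below 2-fold. The 5 together were then at 0.58. Members were counted by the rule used for all genes, a mean of 20 CPM and a ratio with 0.5 CPM added. Col5a1 and Col5a2 did not meet it in level, so only 3 of the 5 members could be counted. By this rule 1 of 5 members at day 3 (Col1a1) and 3 of 5 at day 14 were at least 2-fold higher with TBX18, against 4.45% of 4093 and 4.87% of 4764 genes. With A83-01, 3 of 5 were at least 2-fold lower, against 11.9% of 4523 genes. From day 3 to day 14, 3 of 5 were at least 2-fold higher with either virus, against 10.2% of 4356 genes with GFP and 16.6% of 4567 with TBX18. The share of cells in compartment 2 moved in the direction of these ratios, at 63.7%, 82.8% and 65.0% in the GFP, TBX18 and A83-01 libraries of day 14. The level of the 5 together in compartment 2 did so for A83-01 and for day. With TBX18 against GFP it went the other way, at -0.17 at day 3 and -0.16 at day 14. Over all kept cells of the libraries, that log2 ratio of the 5 together was 0.06 at day 3 and 0.13 at day 14. Scaling by the median of gene ratios gave 0.14 and -0.05 there. The part of RNA from other cells in the ratios of compartment 1 was not tested. The virus ratios also changed with the choice of cells. With the mixed clusters kept in compartment 1 the log2 ratio of the 5 together was 0.42 at day 3 and -0.17 at day 14, and 0 members had a ratio of 2 or more on either day. At day 3 it was 0.51 without the top 15% of doublet scores and 0.071 in the day 14 range of genes and UMIs, again with 0 members at 2 or more, and in that range Col1a2 (-0.42) and Col3a1 (-0.27) were lower with TBX18.

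With the main settings, type V collagen was higher in compartment 1 than in compartment 3 at day 3, beyond counting error except for Col5a1 with GFP. The comparison rests on few UMIs in compartment 3 and is given for those settings only, while the level of compartment 3 moved with the settings. Col5a1 was at 1.13 CPM in compartment 1 of the GFP library at day 3 (113 UMIs) and at 0.209 in compartment 3 (1 UMI, interval to 1.17). Col5a2 was at 2.26 (226 UMIs) and 0.419 (2 UMIs, interval to 1.51). With TBX18 at day 3, Col5a1 was at 2.33 (204 UMIs) while compartment 3 had 0 UMIs. The limit for that 0 was set at 3 UMIs, or 1.02 CPM, and is not the end of an exact interval as above. Col5a2 was at 4.98 in compartment 1 of that library and at 1.70 (5 UMIs) in compartment 3, a log2 ratio of 1.55 (0.32 to 3.18). At day 14 Col5a2 was higher in compartment 1 with GFP (13.1 and 6.06), at 21.3 and 21.5 with TBX18, and lower with A83-01 (4.49 and 21.6). Col5a1 at day 14 was at 2.53 in compartment 1 and 3.37 in compartment 3 with GFP, at 9.50 and 3.90 with TBX18 and at 2.17 and 6.64 with A83-01, differences within counting error. Over the 5 libraries, the type V levels in compartment 1 were 0.917% to 4.82% of those in compartment 2.

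The ratio of Col1a1 to its partner chain Col1a2 was higher in compartment 1 than in compartment 2 in every library. It was also higher in compartment 3 than in compartment 2 in every library, within counting error with TBX18 at day 14 and with A83-01. In TBX18 at day 3 the ratio was 2.39 (2.28 to 2.50) in compartment 1, beside 1.55 (1.28 to 1.88) in compartment 3 and 1.23 in compartment 2. In compartment 1 with GFP at day 3 it was 1.71, beside 1.99 (1.51 to 2.63) in compartment 3. At day 14 it was 2.26 (2.19 to 2.34) in compartment 1 with TBX18, which overlapped the day 3 interval, and 1.89 with A83-01. With GFP at day 14 its interval in compartment 1 ran from 1.915 to 2.093, and compartment 3 was at 1.97. Cluster 9 of compartment 1 in TBX18 at day 14, of 246 cells, had a ratio of 3.12 and Col1a1 at 1161 CPM. The leading genes of compartment 2 were at 0.116 of their level in the largest compartment 2 cluster there. In the other compartment 1 clusters of that library they were at 0.035 to 0.052. Cluster 9 also had the most virus RNA of its compartment, at 35.9 CPM. Cells were therefore split by their virus UMIs, EGFP in the GFP libraries and ZsGFP with hTBX18 in the TBX18 libraries, into classes chosen after cluster values had been seen. In compartment 1 of TBX18 at day 3, Col1a1 was at 58.0 CPM in 1707 cells with 0 virus UMIs, 66.2 in 1007 cells with 1 to 4, and 151 (143 to 158) in 360 cells with 5 or more. Col1a2 was at 30.6, 29.6 and 30.1 in the same cells and Col3a1 at 48.3, 45.6 and 47.7. So Col1a1 was higher in the cells with the most virus RNA, at median depths of 28346, 31323 and 31480 UMIs, and the other abundant chains were not. In the GFP library at day 3 the same classes had Col1a1 at 30.3, 31.0 and 33.4, and at day 14 with GFP at 239, 223 and 187.

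**Figure D5:**
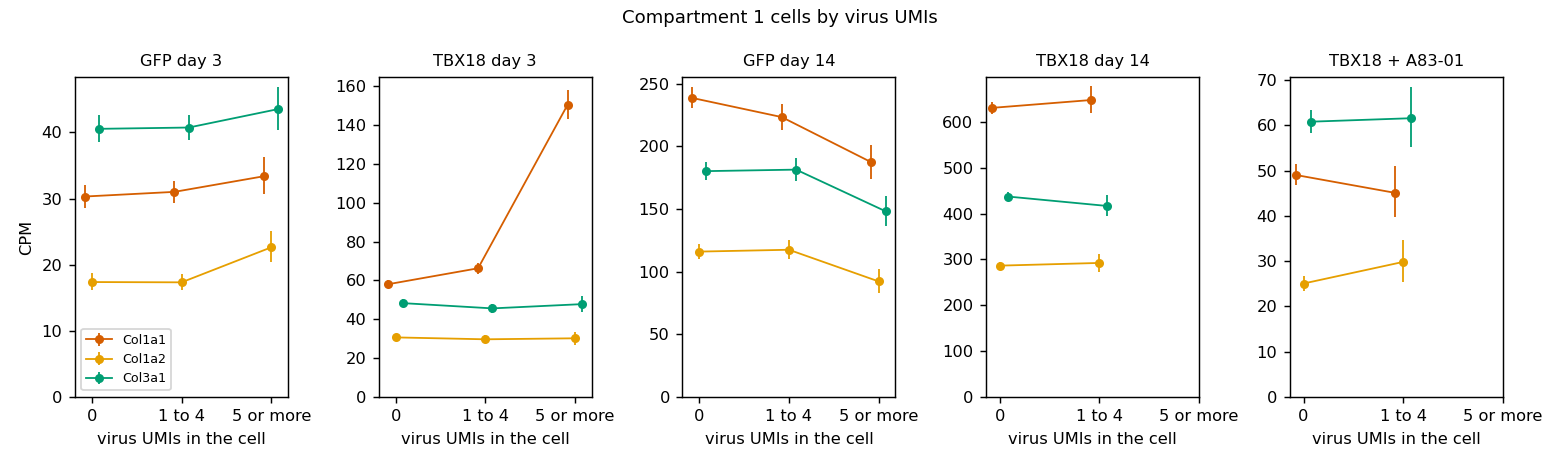
CPM of Col1a1, Col1a2 and Col3a1 in compartment 1 cells, by virus UMIs per cell, with exact 95% Poisson intervals for counting error; classes with fewer than 20 cells are not drawn, and the vertical scale differs between libraries. In TBX18 at day 3 Col1a1 stands at 151 in cells with 5 or more virus UMIs and at 58.0 in cells with 0, while Col1a2 stays between 29.6 and 30.6.

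Col1a1 stood furthest above Col1a2 in 1 cluster of compartment 1 of the TBX18 library at day 3, cluster 5, singled out after its values were seen. Cluster 5 carried the leading genes of compartment 1 at 0.300 of their level in the largest cluster of that compartment, and cluster 13, set beside it here, at 0.0894. Cluster 14 was at 0.229 and the 6 other compartment 1 clusters of that library were at 0.522 to 1, so clusters 5 and 13 stood apart from most of the compartment to which the tree of profiles assigned them. The leading genes of compartment 2 were highest in cluster 5 among these compartment 1 clusters, at 0.0575 of their level in the largest compartment 2 cluster. They were at 0.0521 in cluster 13 and at 0.0193 in the largest compartment 1 cluster. The part of this in the Col1a1 level was not tested. The 321 cells of cluster 5 had Col1a1 at 207 CPM (198 to 216) but Col1a2 at 27.2, Col3a1 at 41.8, Col5a1 at 2.18 and Col5a2 at 5.45, and 84.7% of them held a virus UMI. In the other 2753 cells of compartment 1 Col1a1 was at 54.6, Col1a2 at 30.6 and Col3a1 at 48.0, and 39.8% held a virus UMI. Inside the cluster Col1a1 was at 220 in 272 cells with a virus UMI and at 131 (113 to 150) in 49 cells without. Outside it Col1a1 was at 53.4 with and 55.5 without a virus UMI, and at 62.7 (56.0 to 69.9) in 183 cells with 5 or more. Cluster 13, of 117 cells, had more virus RNA, at 915 against 362 CPM in cluster 5, and its ratio of Col1a1 to Col1a2 was 1.81 against 7.58. Col1a1 itself was nearly as high in other clusters, at 201 CPM in cluster 13 and at 194 in cluster 11, of 136 cells. Col1a2 was higher there too, at 111 and 77.4, and the ratio in cluster 11 was 2.50. Those clusters had median depths of 11300 and 9549 UMIs. The median depth was 31567 UMIs in cluster 5 and 29415 in the rest. Over compartment 1 as a whole, the log2 ratio of Col1a1 in cells with to cells without virus UMIs was 0.60 (0.53 to 0.67) in TBX18 at day 3, 0.06 (-0.04 to 0.17) in GFP at day 3, -0.17 in GFP at day 14, 0.18 (0.11 to 0.24) in TBX18 at day 14 and -0.10 (-0.29 to 0.08) with A83-01. Leaving out the top 15% of doublet scores turned the first to -0.10, although 313 of the 321 cells stayed in compartment 1, whose level of the 5 together then was 233 in place of 157 CPM. The value for TBX18 at day 14 turned to -0.44 with no doublets removed. With A83-01 it ran from -0.44 with mixed clusters kept to 1.02 at resolution 2 and 1.14 with all libraries clustered together.

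In compartment 2, cells with a virus UMI were few, at 222, 149, 410, 118 and 104 in the GFP day 3, TBX18 day 3, GFP day 14, TBX18 day 14 and A83-01 libraries. Their log2 ratio of Col1a1 to cells without was 0.18, 0.30, 0.12, 0.10 and 0.26, and that of Col1a2 was 0.12, 0.20, 0.13, 0.16 and 0.23. Both chains of type I collagen were thus slightly higher in virus-positive cells with either virus. Those cells were also deeper, with a median of 30396, 34766, 16718, 16892 and 16905 UMIs beside 23796, 27357, 15544, 15283 and 16405 in cells without, and the part of depth in these ratios was not tested. Col3a1 was at -0.04, 0.18, 0.14, 0.05 and 0.32. Differences between TBX18 and GFP in these ratios were not tested.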

How the data were processed

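Droplet 3' single-cell RNA libraries (Chromium Next GEM v3.1, NovaSeq, per the labels' protocols), 1 per group, were analysed from the tables the authors deposited. The submitters' processing notes name STAR 2.7.8a, Partek and Rnor_6.0. Day 3 tables hold expected counts, as deposited by the authors, and were rounded. Day 14 tables hold log2 values, log2(CPM + 1) per cell by their values as deposited. UMIs were recovered by taking the most common value of a cell as 1 UMI, and 99.7% of values came out whole within 0.05. Depth was 104599784 to 202019552 UMIs per library over shared genes.

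Barcodes with at least 500 genes were kept and the top 6% of scanpy 1.11.5 doublet scores left out. Each library was clustered without members and virus features (2000 variable genes, 30 components, 20 neighbours, Leiden resolution 1). Of 17060 gene IDs, 0 matched a symbol, so the planned markers and collagen biosynthesis list were not used, and a tree of cluster profiles gave the compartments. A cluster was mixed if the median of the 250 leading genes of both compartments reached 25% of its level. UMIs were summed per class and scaled to 1000000 per class (CPM). Intervals are exact (Poisson, Clopper-Pearson, or conditional for ratios) at 95%. Intervals cover counting error only. The share of genes past 2-fold used genes with a mean of 20 CPM and a pseudocount of 0.5 CPM. Named genes are the members, the virus features and genes most alike across cells, of which 2 IDs are given. Recovery of UMIs, ratios and intervals were tested on simulated data. Members and lists were chosen with earlier results of these data known. The compartment rule and the virus classes were chosen after the data were seen.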

Additional observations from a re-analysis of the deposited data

Results flagged for a closer look

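Ratios of TBX18 to GFP that lay on opposite sides of 0 in compartments 1 and 2, each beyond its counting interval, were singled out, and none of these differences was tested. At day 3 the log2 ratio was 1.21 in compartment 1 and -0.15 in compartment 2 for Col1a1, 0.73 and -0.02 for Col1a2, and 0.20 and -0.37 for Col3a1. At day 14 it was 1.52 and -0.17 for Col1a1, 1.34 and -0.26 for Col1a2, 1.31 and -0.05 for Col3a1, and 0.70 and -0.21 for Col5a2. Some of these opposite signs did not hold under other settings: for Col1a2 at day 3 the compartment 2 value was 0.072 with median-of-ratios scaling and the compartment 1 value -0.42 in the day 14 range of genes and UMIs, where Col3a1 was at -0.27. With mixed clusters kept in compartment 1, Col1a1 (-0.16), Col1a2 (-0.32) and Col3a1 (-0.057) at day 14 were negative in both compartments. Over compartment 1 as a whole, the levels behind its type I and type III values were at or below those in compartment 3, or above them by less than counting error. Col1a1 in cluster 5 of TBX18 at day 3 was higher, at 207 CPM. In compartment 2 the Col5a2 ratio was also on opposite sides of 0 at the 2 days, with 0.09 at day 3 and -0.21 at day 14, and that difference was not tested either.

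Barcodes with under 500 genes, which were left out of the compartments except with no filter on cells, held collagen UMIs above the limit of 3 set for a count of 0. There were 449 UMIs of the 5 genes in the 731 such barcodes of the GFP library at day 3, or 86.1 CPM, and 324 in the 292 such barcodes of the TBX18 library at day 3, or 109 CPM.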

How the results depend on the processing

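No paired analysis was possible because each group has 1 library and no replicate numbers are shared. Leaving out a replicate was not possible for the same reason. The alternatives listed in advance were run except any on the collagen biosynthesis list, which could not be matched to gene IDs. Keeping mixed clusters in compartment 1, keeping compartment 3 in compartment 2 and leaving out cluster 5 of TBX18 at day 3 were chosen after seeing the data. Members at 2-fold are counted here by their ratio alone, with no minimum level and no pseudocount. A log2 ratio counts as moved when it leaves its counting interval, which is narrow at these depths.

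In compartment 2 the 5 genes together kept their direction in all 5 comparisons under every alternative run. TBX18 against GFP at day 3 (-0.17) was -0.081 with median-of-ratios scaling, -0.18 without the top 15% of doublet scores, -0.21 in the day 14 range of genes and UMIs and -0.13 with compartment 3 kept in compartment 2. At day 14 (-0.16) it was -0.30 with median-of-ratios scaling, -0.16 with the members left out of the total, without the top 15% of doublet scores or with all libraries clustered together, and -0.14 with compartment 3 kept. A83-01 against TBX18 (-0.87) was -0.76, -0.89, -0.87 and -0.86 with median-of-ratios scaling, members out of the total, 15% of doublets out and compartment 3 kept. With members out of the total, 1 member in place of 0 was 2-fold lower. Day 14 against day 3 with GFP (1.62) was 1.66 with members out of the total, 1.63 with no doublet removal, 1.61 with 15% removed, with joint clustering or with no filter on cells, 1.66 in the day 14 range and 1.68 with compartment 3 kept. With TBX18 (1.63) it was 1.32 with median-of-ratios scaling, 1.67 with members out of the total, 1.64 with no doublet removal, 1.62 with 15% removed, 1.63 with joint clustering or no filter on cells, 1.72 in the day 14 range and 1.67 with compartment 3 kept. Among single genes, median-of-ratios scaling reversed Col1a2 at day 3 (0.072) and Col5a1 at day 14 (-0.047) for TBX18 against GFP, and keeping compartment 3 in compartment 2 reversed Col1a2 at day 3 (0.026).

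Compartment 1 depended far more on the processing, and the cause was not tested. TBX18 against GFP at day 3 (0.74) was 0.84 with median-of-ratios scaling, 0.65 with no doublet removal, 0.51 with 15% removed, 0.58 without cluster 5, 0.071 in the day 14 range and 0.42 with mixed clusters kept. The 15% removal, the day 14 range and the mixed clusters gave 0 members in place of 3 at 2-fold higher. In the day 14 range Col1a2 (-0.42) and Col3a1 (-0.27) reversed. At day 14 (1.40) it was 1.17 with median-of-ratios scaling, 3.39 with no doublet removal, 1.32 with 15% removed, 2.40 at resolution 2, 1.27 with joint clustering and -0.17 with mixed clusters kept. In that last setting 0 members in place of 4 were 2-fold higher, and Col1a1 (-0.16), Col1a2 (-0.32) and Col3a1 (-0.057) reversed. A83-01 against TBX18 (-3.30) was -2.88 with median-of-ratios scaling, -5.25 with no doublet removal, -2.70 at resolution 2, -2.02 with joint clustering and -1.77 with mixed clusters kept. Day 14 against day 3 with GFP (2.50) was 1.74 with 15% of doublets removed, 2.59 with joint clustering, 2.12 in the day 14 range and 4.08 with mixed clusters kept. With TBX18 (3.16) it was 2.79 with median-of-ratios scaling, 5.21 with no doublet removal, 2.55 with 15% removed, 4.18 at resolution 2, 3.13 with joint clustering, 3.19 with no filter on cells, 3.45 in the day 14 range, 3.49 with mixed clusters kept and 3.32 without cluster 5. For cells with against without virus UMIs, Col1a1 in TBX18 at day 14 reversed to -0.44 with no doublet removal, -0.036 at resolution 2 and -0.22 with mixed clusters kept, and Col5a1 there to -0.11 and -0.32 in the first and last of these. In TBX18 at day 3 the removal of 15% reversed Col1a1 (-0.10) and Col5a2 (-0.12). In GFP at day 14 keeping mixed clusters reversed Col1a1 (0.10) and Col5a1 (0.17). With A83-01, where the counting interval of Col1a1 held 0, Col1a1 and Col1a2 moved from -0.10 and 0.24 to 1.02 and 1.27 at resolution 2, to 1.14 and 1.32 with joint clustering, and to -0.44 and -0.30 with mixed clusters kept.

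The share of compartment 1 cells with any of the 5 at 2500 UMIs was 20.6%, 27.8%, 67.2%, 92.7% and 29.9%, and without thinning 81.3%, 91.9%, 99.6%, 100% and 89.8%, in the GFP day 3, TBX18 day 3, GFP day 14, TBX18 day 14 and A83-01 libraries. In compartment 2 it was 99.4% for both day 3 libraries at 2500 UMIs and 99.5% for TBX18 at day 3 without thinning. A minimum of 5 CPM raised the count of genes past 2-fold. In compartment 1 it went from 182 to 398 and from 232 to 576 higher with TBX18 at days 3 and 14, from 540 to 1338 lower with A83-01, and from 446 to 893 and 756 to 1545 higher at day 14 with GFP and TBX18. In compartment 2 it went from 40 to 83 higher and 40 to 76 lower with TBX18 at day 3, from 141 to 273 higher and 16 to 43 lower at day 14, from 359 to 635 lower with A83-01, and from 836 to 1744 and 1283 to 2631 higher at day 14 with GFP and TBX18. Median-of-ratios scaling gave 146 higher with TBX18 at day 14, 208 lower with A83-01 and 366 higher at day 14 with TBX18 in compartment 1. In compartment 2 it gave 25 lower and 38 lower with TBX18 at days 3 and 14 and 839 higher at day 14 with TBX18. A pseudocount of 5 CPM gave 24 and 9 lower with TBX18 at days 3 and 14 in compartment 2.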

Other observations

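The mixed clusters, which were left out of both compartments, held much fibrillar collagen RNA. The 5 genes together were at 8925 CPM in 84 cells of GFP at day 3, 13018 in 58 cells of TBX18 at day 3, 27558 in 277 cells of GFP at day 14, 23425 in 180 cells of TBX18 at day 14 and 8679 in 354 cells with A83-01. Relative to compartment 2, Col5a2, the type V chain, was lower in these cells in every library, at 113, 164, 255, 273 and 83.4 CPM beside 247, 262, 576, 499 and 316. Col1a1 was lower in 4 libraries and higher in TBX18 at day 3, at 5743 beside 4620. Virus RNA was present as well, with EGFP at 200.5 and 150.0 CPM in the GFP libraries, beside 93.2 and 166 in compartment 1.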
